A study of Mus musculus with 32 samples.

Results

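The immediate early and AP-1 genes examined here are 10 genes that were chosen by name, not by their values: Fos, Fosb, Jun, Junb, Jund, Egr1, Ier2, Atf3, Nr4a1 and Dusp1. All 10 are among the 45706 genes in the deposited tables, and all 10 passed the filter on low counts that left 15186 genes for testing. RNA was measured in sorted mouse haematopoietic stem and progenitor cells (HSPCs; Lin- cKit+ Sca1+) from bone marrow, in 16 libraries that fall into 4 groups of 4. The groups were experienced mice given LPS, experienced mice given PBS, naive mice given LPS and naive mice given PBS. LPS (lipopolysaccharide) is a component of the Gram-negative bacterial outer membrane that is sensed through Toll-like receptor 4, and PBS is the saline vehicle. All mice were lethally irradiated C57BL/6J (CD45.2) recipients of mixed whole bone marrow, and the sorted HSPCs were, per the labels, of the CD45.1+/2+ wild-type donor, of which 800000 marrow cells were given. In experienced mice the 200000 partner cells were CD45.1 marrow homozygous for a human MLL-AF9 fusion (hMLL-AF9) with rtTA, which doxycycline switches on. In naive mice the partner cells carried rtTA and no hMLL-AF9. From 6 to 8 weeks after transplant both kinds of mice received doxycycline for 5 weeks, which was then withdrawn for 4 weeks. PBS or LPS was given after the withdrawal, and marrow was taken 24 hours later. The sorted cells therefore never carried the fusion themselves, by their label. The sources used here give neither the LPS dose nor the promoter that drives rtTA. Since nothing states that each replicate was a separate mouse, p-values cover only the variation among these libraries, part of which may be technical.

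Immediate early genes are transcribed within minutes of a stimulus, from transcription factors that are already in the cell and that MAP kinases and other kinases switch on: serum response factor (SRF) with its ELK and MRTF partners, and CREB with its relatives. Fos and Fosb encode proteins that pair with Jun, Junb or Jund to form AP-1, a dimer that binds DNA at TGACTCA and related sites. Their RNAs are short-lived, and the same genes are also raised by enzymatic or mechanical handling of tissue and by cell sorting. All cells here went through marrow flushing, red cell lysis, magnetic lineage depletion and fluorescence-activated sorting before lysis. In mouse HSPCs, Egr1 and the Nr4a family are known for keeping stem cells out of division and Junb for restraining their proliferation.

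The promoters of 4 of the genes are shown. Atf3 and Nr4a1 are the genes that passed the test below, and the ratio of Fosb to Fos was examined after the values had been seen. Each line gives the 250 bases before the transcription start, 5' to 3' on the gene's own strand, from RefSeq on GRCm38.p6. Capitals mark matches to the CRE half-site TGACG, the core that CREB and ATF proteins bind, and to the EGR site GCGGGGGCG, on either strand (CGTCA and CGCCCCCGC read on the other strand).
Fos: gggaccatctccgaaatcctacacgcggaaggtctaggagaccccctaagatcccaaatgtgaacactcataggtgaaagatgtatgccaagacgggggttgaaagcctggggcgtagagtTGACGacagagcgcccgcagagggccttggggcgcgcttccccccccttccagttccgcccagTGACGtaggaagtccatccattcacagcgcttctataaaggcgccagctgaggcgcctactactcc
Fosb: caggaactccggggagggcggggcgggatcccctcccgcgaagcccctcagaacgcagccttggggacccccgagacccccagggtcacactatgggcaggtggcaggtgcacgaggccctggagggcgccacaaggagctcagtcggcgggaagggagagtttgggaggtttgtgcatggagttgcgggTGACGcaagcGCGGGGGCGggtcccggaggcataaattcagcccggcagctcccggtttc
Atf3: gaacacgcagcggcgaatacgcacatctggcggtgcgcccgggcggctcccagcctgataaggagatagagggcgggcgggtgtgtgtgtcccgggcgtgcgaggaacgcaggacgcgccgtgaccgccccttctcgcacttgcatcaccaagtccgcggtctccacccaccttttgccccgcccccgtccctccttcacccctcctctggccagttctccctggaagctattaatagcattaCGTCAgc
Nr4a1: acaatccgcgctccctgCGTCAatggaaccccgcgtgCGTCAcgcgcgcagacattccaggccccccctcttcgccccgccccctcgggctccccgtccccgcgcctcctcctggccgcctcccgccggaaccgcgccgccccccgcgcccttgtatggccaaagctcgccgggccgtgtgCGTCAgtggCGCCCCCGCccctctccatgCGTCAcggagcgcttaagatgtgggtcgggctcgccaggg
The Fos promoter lies at chr12:85473640-85473889 (plus strand), the Fosb promoter at chr7:19310046-19310295 (minus strand), the Atf3 promoter at chr1:191183334-191183583 (minus strand) and the Nr4a1 promoter at chr15:101266596-101266845 (plus strand). Further annotated transcripts of Atf3 and Nr4a1 start upstream of these windows.

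The windows searched for motifs ran from 250 bases before to 50 after the start, and 8 of the 10 genes had one, without Egr1 and Ier2. A CRE half-site was found in 6 of the 8, against 20.8% of all 32851 promoters of the same length. Nr4a1 held 4 half-sites, Dusp1 3, Fos 2, and Fosb, Junb and Atf3 1 each. In Atf3 the half-site began 7 bases before the start. Dusp1 held the full palindrome TGACGTCA, which contains 2 of its 3 half-sites and occurs in 1.79% of all promoters. The EGR site stood in Fosb and Nr4a1 and in 2.91% of all promoters. The Jun promoter held TGACATCA, an octamer bound by Jun with ATF2, which 3.62% of all promoters contain. Neither the AP-1 site TGACTCA (5.20% of all promoters) nor a CArG box, the SRF site (1.63%), was among the letters of any of the 8 windows. Bases beyond these windows were not searched, so this does not mean that the genes lack such sites. The start used for Jund lay 1210 bases from the nearest GENCODE start and that for Junb 30 bases, so these windows may not be the promoters that the counted transcripts use.

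Libraries held between 7718836 and 22264649 counts. Mitochondrial genes took 7.30% of the counts in replicate 4 of experienced mice given LPS, 5.94% in replicate 4 of experienced mice given PBS, and 1.91% to 4.26% elsewhere. All 10 sort gate and HSPC genes were detected, including Kit, Cd34 and Ly6a (Sca-1), with a summed level of 1502 to 2966 CPM (counts scaled to a common library size). After LPS 2 of these 10 genes were higher and 5 lower in each kind of mouse, where 4.52% of all tested genes were higher and 8.26% lower in experienced mice and 9.81% and 11.9% in naive mice. The summed level was 1563 to 1632 CPM in experienced mice given LPS against 2029 to 2592 CPM in experienced mice given PBS, and 1502 to 1945 CPM in naive mice given LPS against 2440 to 2966 CPM in naive mice given PBS. Ly6a and Gata2 were higher, and Mecom, Hlf, Flt3, Cd34 and Procr lower, in each kind of mouse. Ly6a, a gene of the sort gate, averaged 112 CPM after LPS and 30.5 CPM after PBS in experienced mice. In naive mice these means were 124 and 37.7 CPM. Whether the gate held other cells after LPS was not tested. LPS also lowered 2 of 5 tested stromal and endothelial genes (Pecam1 and Emcn) in each kind of mouse. Summed levels of genes of mature neutrophils (8.90 to 41.9 CPM), monocytes and macrophages (43.4 to 88.6 CPM), T and NK cells (58.7 to 119 CPM) and B cells (10.0 to 23.1 CPM) were low, with at most 1 gene of each list called in either direction after LPS, and no gene of these lists was at 0 in all libraries. Of 6 megakaryocyte and platelet genes 2, Itga2b and Gp1bb, were higher after LPS in each kind of mouse and 4 were not called, with a median log2 change of 0.85 in experienced and -0.31 in naive mice. Itga2b, at 374 CPM in naive mice given LPS and 162 CPM in naive mice given PBS, makes up most of the sum of the list. These sums were 333 to 668 CPM in experienced mice given LPS against 144 to 228 CPM after PBS, and 374 to 543 CPM in naive mice given LPS against 183 to 288 CPM after PBS. Of 7 tested erythroid genes, 0 were called in experienced mice and 3 were higher in naive mice, where 4.52% and 9.81% of all tested genes were higher, and 0 were called in the interaction with edgeR. The part of these shifts in the results below was not tested. In bulk RNA, fewer cells of a type and less RNA per cell cannot be told apart.

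**Figure D1:**
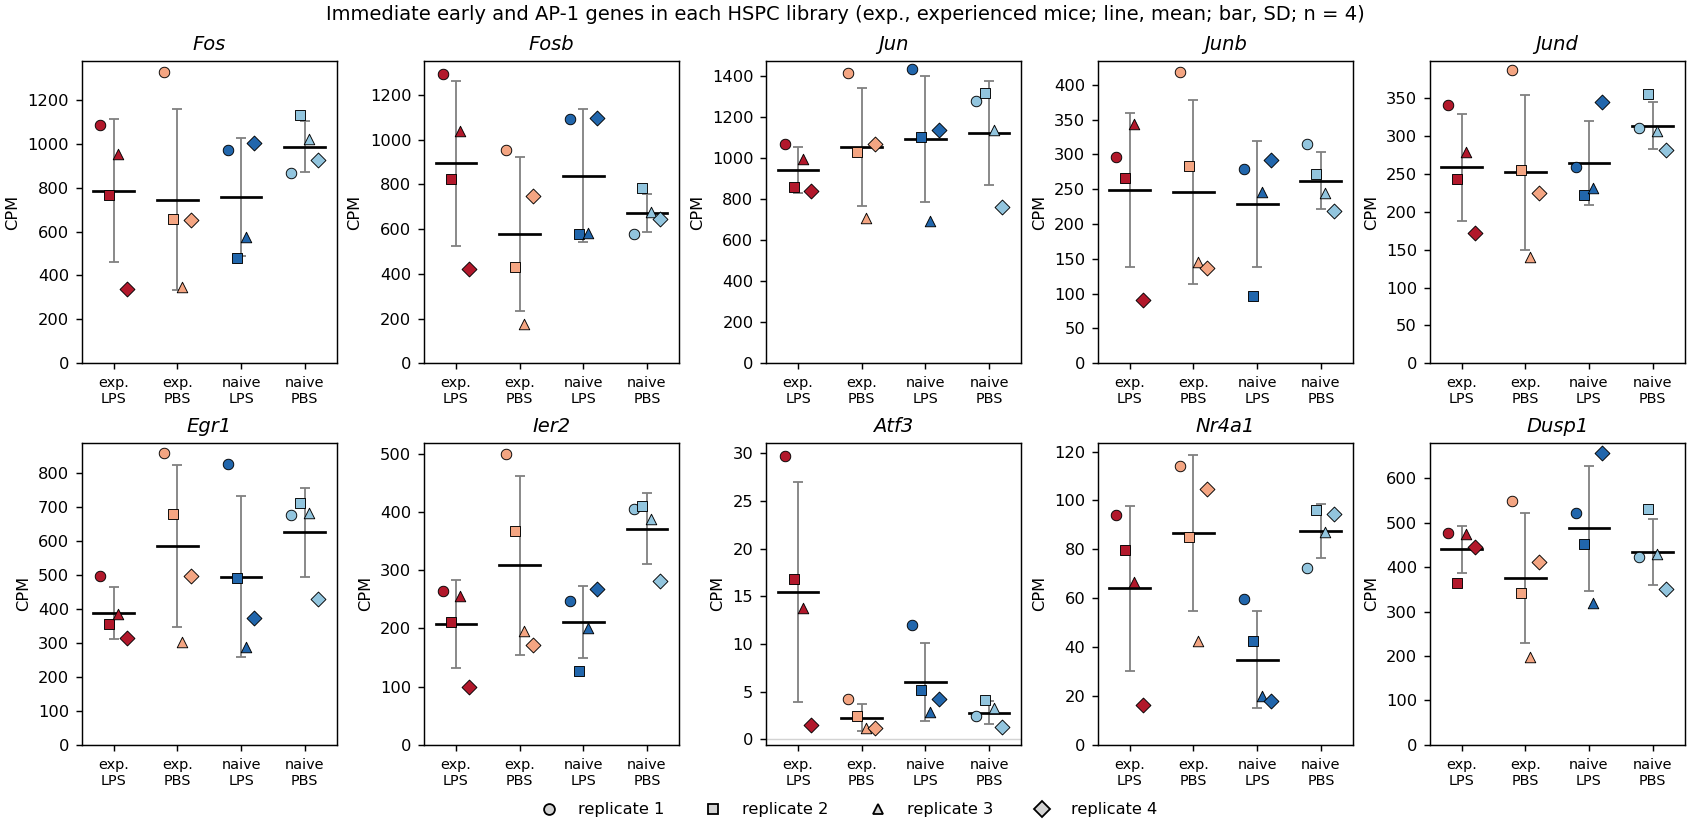
CPM of the 10 genes in every library, on linear axes that include 0, with 4 libraries in each group, the group mean (line) and SD (bar). Atf3 is highest in 3 of the 4 libraries of experienced mice given LPS, and all 4 Nr4a1 values of naive mice given LPS lie below the 4 of naive mice given PBS.

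The levels of the 10 genes were compared per length, in TPM (transcript abundance scaled for length and library size). Fos had the highest median over the 16 libraries, 618 TPM, and ranked 112 to 322 among all genes of a library. Jun (410 TPM), Dusp1 (293 TPM), Fosb (251 TPM), Ier2 (207 TPM), Egr1 (191 TPM), Junb (189 TPM) and Jund (115 TPM) followed. Nr4a1 had a median of 37.1 TPM, and Atf3, at 2.72 TPM, was the least abundant. Along this order the ranges of neighbouring genes overlapped at every step except one: the highest Nr4a1 value, 65.1 TPM, was just below the lowest Jund value, 65.5 TPM. All 10 transcripts were thus detected in every library, with or without LPS.

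Of the AP-1 genes, neither Fos nor Fosb passed the test in any comparison. The mean ratio of Fosb to Fos was higher after LPS in each kind of mouse, without overlap in naive mice only. This ratio was chosen after the values had been seen. Adjusted over all pairs of the genes examined, its exact permutation p was 0.0714 in naive and 0.19 in experienced mice. Fos had 1086, 766, 953 and 338 CPM in experienced mice given LPS, against 1327, 658, 347 and 651 CPM in experienced mice given PBS. In naive mice it had 972, 479.7, 576 and 1002 CPM after LPS and 864, 1129, 1023 and 925 CPM after PBS. The groups overlapped in both kinds of mice, and the 4 libraries of naive mice given PBS were the closest to each other. The log2 change of Fos with LPS was 0.08 (SE 0.37, 95% interval -0.71 to 0.86) in experienced mice and -0.38 (SE 0.37, -1.17 to 0.41) in naive mice, with adjusted p = 0.916 and 0.502 from edgeR's quasi-likelihood test.

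Fosb, whose RNA is also spliced to a shorter form that encodes the long-lived ΔFosB, had 1296, 827, 1038 and 423 CPM in experienced mice given LPS, against 954, 431, 174 and 750.2 CPM in experienced mice given PBS. In naive mice it had 1093, 579.8, 582.3 and 1099.6 CPM after LPS and 579, 785, 678 and 646 CPM after PBS. Again the groups overlapped, with 2 libraries after LPS above all 4 after PBS in each kind of mouse. The log2 change was 0.63 (SE 0.41, 95% interval -0.23 to 1.503) in experienced mice and 0.32 (SE 0.41, -0.55 to 1.18) in naive mice, with edgeR adjusted p = 0.342 and 0.622. Weighting libraries by quality in limma-voom called Fosb in experienced mice, at 0.93 and adjusted p = 0.00885. That fit called 3521 of all 15186 tested genes higher and 4021 lower, so the call is not particular to Fosb.

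Within a library the ratio of Fosb to Fos CPM was steadier than either gene. The ratio was 1.19, 1.08, 1.09 and 1.25 in experienced mice given LPS, against 0.719, 0.655, 0.503 and 1.15 in experienced mice given PBS. In naive mice it was 1.12, 1.21, 1.01 and 1.10 after LPS and 0.670, 0.695, 0.663 and 0.699 after PBS. All 8 libraries after LPS lay above 7 of the 8 after PBS, and the eighth was replicate 4 of experienced mice, which has the higher mitochondrial share. CPM is not scaled for length, so the ratio serves to compare libraries and does not say which gene was more abundant. In TPM Fos was above Fosb in all 16 libraries, and the ratio of Fosb to Fos TPM was 0.421 to 0.553 in experienced mice given LPS against 0.204 to 0.463 in experienced mice given PBS, and 0.413 to 0.457 in naive mice given LPS against 0.279 to 0.300 in naive mice given PBS. The mean ratio was 1.11 ± 0.08 after LPS and 0.682 ± 0.018 after PBS in naive mice (SD, n = 4 each), 1.63-fold higher after LPS, with no overlap and a two-sided exact permutation p = 0.0286, the smallest that 4 against 4 libraries allow. In experienced mice the means were 1.15 ± 0.08 and 0.757 ± 0.279 (SD, n = 4 each), with overlap. From the means of the log2 ratios, the ratio was 1.59-fold higher after LPS there, with exact permutation p = 0.0857. All folds of the ratio in this paragraph come from means of log2 ratios, on which the permutation test was also run. Without both libraries of high mitochondrial share the difference in experienced mice was 1.81-fold with no overlap, and the exact p = 0.1 is the smallest that 3 against 3 allow. Between experienced and naive mice the ratio differed 1.04-fold after LPS (exact permutation p = 0.543) and 1.06-fold after PBS (exact permutation p = 0.743). The ratio was chosen after the values had been seen and is 1 of 45 possible pairs of the 10 genes. Adjusted over the 45 pairs, its permutation p was 0.0714 in naive and 0.19 in experienced mice, so a difference in the ratio is not shown in either. In naive mice 18 of the 45 pairs did not overlap. In experienced mice 9 of the 45 pairs did not overlap, and between experienced and naive mice 0 did, after LPS or after PBS. Pairs share genes and are not independent of each other. The share of such pairs among all tested genes was not computed. Of single tested genes, 29.3% did not overlap in naive and 17.3% in experienced mice. The counts of pairs are therefore not shown to be particular to these 10 genes. Atf3 and Nr4a1 each took part in 6 of the 18 pairs in naive mice, Ier2 in 5, and Fosb and Jund in 4 each.

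**Figure D2:**
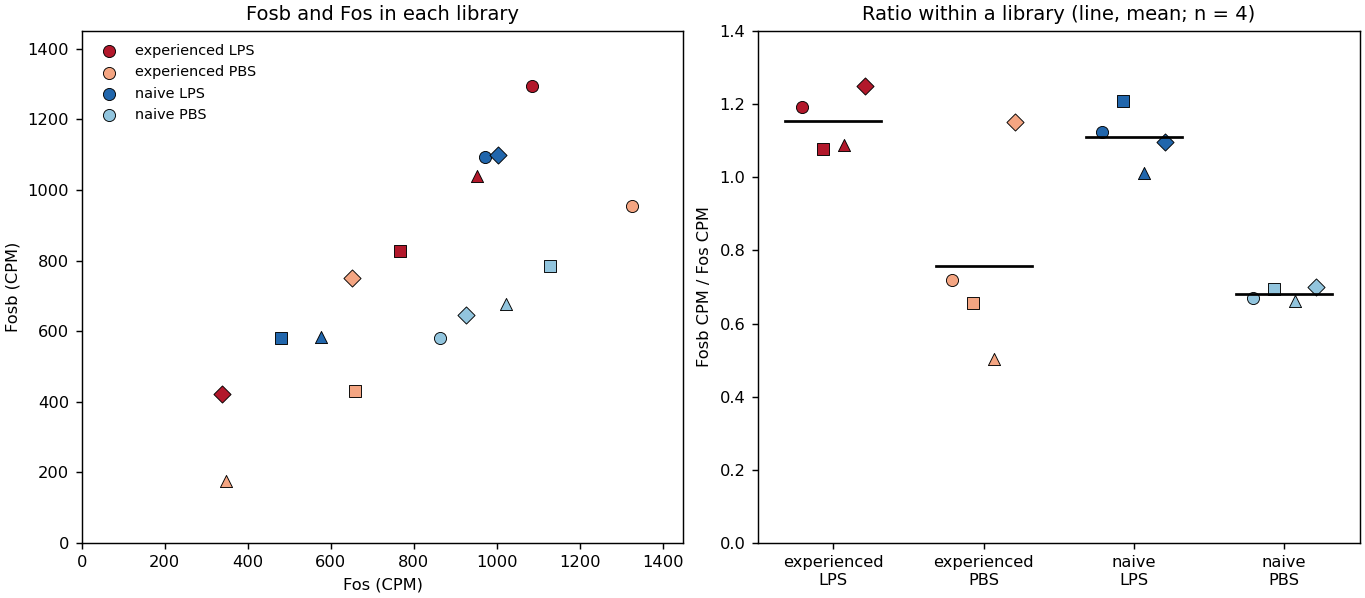
Left, Fosb against Fos in CPM in each of the 16 libraries, and right, the Fosb to Fos ratio of CPM (not scaled for length) within each library with the group mean (line, n = 4). The ratios after LPS lie between 1.01 and 1.25, above 7 of the 8 after PBS.

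Jun, the founding Jun family member, was the steadiest of the 10 genes, with a 2.07-fold range over the 16 libraries. It ranged from 838 to 1067 CPM in experienced mice given LPS, against 708 to 1411 CPM in experienced mice given PBS, and from 691 to 1433 CPM in naive mice given LPS, against 759 to 1314.5 CPM in naive mice given PBS. Its log2 changes with LPS were -0.16 (SE 0.24) and -0.04 (SE 0.24) in experienced and naive mice. Junb ranged from 90.5 to 343 CPM in experienced mice given LPS, against 137 to 418 CPM after PBS, and from 96.1 to 292 CPM in naive mice given LPS, against 219 to 315 CPM after PBS. The log2 changes of Junb were 0.02 (SE 0.41) and -0.20 (SE 0.41). Jund, the Jun gene that is usually expressed without a stimulus, ranged from 172 to 342 CPM in experienced mice given LPS, against 141 to 387 CPM after PBS, and from 223 to 345 CPM in naive mice given LPS, against 282 to 356 CPM after PBS. The log2 changes of Jund were 0.04 (SE 0.25) and -0.24 (SE 0.25). For all 3 Jun genes the groups overlapped, and no adjusted p was under 0.05. Jun, Junb and Jund share genomic bases with Junos, Prdx2 and Gm11175 on the opposite strand, and with the strand setting not given, reads of such partners cannot be told apart.

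Atf3 was the gene that rose with LPS, and the call was made in experienced mice. It encodes a stress-induced leucine zipper protein of the ATF family, known in mouse macrophages for limiting the inflammatory genes that LPS induces. Atf3 had 29.7, 16.8, 13.8 and 1.51 CPM in experienced mice given LPS, against 4.18, 2.45, 1.20 and 1.21 CPM in experienced mice given PBS. In naive mice it had 11.997, 5.17, 2.82 and 4.21 CPM after LPS and 2.48, 4.07, 3.27 and 1.26 CPM after PBS. In each kind of mouse 3 of the 4 libraries after LPS lay above all 4 after PBS, and the remaining library overlapped with them.
In experienced mice the means were 15.4 ± 11.6 CPM after LPS and 2.26 ± 1.41 CPM after PBS (SD, n = 4 each), a log2 change of 2.76 (SE 0.68, 95% interval 1.33 to 4.19; 6.76-fold) with edgeR adjusted p = 0.0138. This was 1 of the 10 genes called higher and 0 lower, where 12.8% of all tested genes were called, 4.52% higher and 8.26% lower. It was also the 1 gene of the 10 with an unadjusted p under 0.05, against 27.9% of all tested genes. None of the 10 had groups without overlap, against 17.3% of all tested genes (6.45% higher and 10.9% lower). The overlap came from replicate 4 after LPS, which had 11 Atf3 counts, the lowest depth and the highest mitochondrial share. In TPM that library had 3.97, above the highest value after PBS (3.03 TPM), but this rests on the same 11 counts. There the TPM of Atf3 was above its CPM (1.51), while in every other library of experienced mice it was below. The TPM value therefore does not show that the groups are apart. Without it the log2 change was 3.15 (adjusted p = 0.000974), and without both libraries of high mitochondrial share 2.96 (adjusted p = 0.0025). Without replicate 1 after LPS it was 2.23, and the call was lost at adjusted p = 0.0555. In naive mice the log2 change was 1.13 (SE 0.65, -0.24 to 2.50) with adjusted p = 0.227.

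Nr4a1 was the gene that fell with LPS, and the call was made in naive mice. It encodes Nur77, an orphan nuclear receptor. Nr4a1 had 59.5, 42.4, 19.8 and 17.9 CPM in naive mice given LPS, against 72.2, 96.2, 87.2 and 94.6 CPM in naive mice given PBS. In experienced mice it had 93.8, 79.8, 66.5 and 16.4 CPM after LPS and 114, 85.2, 42.5 and 104.8 CPM after PBS. The naive groups did not overlap, while the experienced groups did, with replicate 4 after LPS and replicate 3 after PBS far below the rest.
In naive mice the means were 34.9 ± 19.8 CPM after LPS and 87.6 ± 10.9 CPM after PBS (SD, n = 4 each), a log2 change of -1.33 (SE 0.45, 95% interval -2.27 to -0.38; 0.399-fold) with edgeR adjusted p = 0.0428. This was 1 of the 10 genes called lower and 0 higher, where 21.7% of all tested genes were called, 9.81% higher and 11.9% lower. The call stood close to the threshold. Leaving out single libraries moved it to adjusted p of 0.00938 to 0.113, and it was lost in 10 of 16 such fits: without each of the 4 libraries of naive mice given PBS, without replicates 2, 3 or 4 of naive mice given LPS, without replicates 2 or 3 of experienced mice given LPS, and without replicate 2 of experienced mice given PBS. The log2 change stayed between -1.73 and -1.11 in these fits. In experienced mice the log2 change was -0.43 (SE 0.44, -1.35 to 0.50) with adjusted p = 0.576, and 0.01 (adjusted p = 0.986) without both libraries of high mitochondrial share.

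Ier2, which encodes a small nuclear protein, had 247, 127, 201 and 267 CPM in naive mice given LPS, against 406, 411, 387 and 282 CPM in naive mice given PBS. These groups did not overlap, yet the log2 change of -0.82 (SE 0.34, 95% interval -1.54 to -0.10) missed the threshold with edgeR adjusted p = 0.0946. Nr4a1 and Ier2 were the 2 of 10 genes with naive groups that did not overlap, both lower after LPS and both with an unadjusted p under 0.05, where 35.4% of all tested genes had such a p and 29.3% did not overlap, 12.5% higher and 16.8% lower. In experienced mice Ier2 had 265, 211, 256 and 99.7 CPM after LPS and 499, 367, 196 and 171 CPM after PBS, with overlap and a log2 change of -0.57 (SE 0.34, adjusted p = 0.296). Ier2 was called in naive mice by limma-voom with quality weights (adjusted p = 0.0163), by edgeR on the compared groups alone (adjusted p = 0.0246) and without both libraries of high mitochondrial share (adjusted p = 0.0287). Of all tested genes, limma-voom called 2282 of 15186 lower there, the compared groups alone 1944 of 14533, and the last setting 2377 of 15484. In experienced mice limma-voom with quality weights also called Ier2. Egr1, a zinc finger factor, ranged from 316 to 495 CPM in experienced mice given LPS, against 303 to 858 CPM after PBS, and from 287 to 825 CPM in naive mice given LPS, against 429 to 711 CPM after PBS. Its log2 changes were -0.59 (SE 0.32, adjusted p = 0.242) in experienced and -0.34 (SE 0.32, adjusted p = 0.485) in naive mice, and limma-voom with quality weights called the change in experienced mice (-0.72, adjusted p = 0.00826). In experienced mice that fit called 4021 of all 15186 tested genes lower and 3521 higher. Dusp1, the phosphatase that switches off the MAP kinases p38 and JNK, ranged from 363 to 477 CPM in experienced mice given LPS, against 199 to 549 CPM after PBS, and from 319.7 to 657 CPM in naive mice given LPS, against 350.5 to 531 CPM after PBS. Its log2 changes were 0.23 (SE 0.26) and 0.17 (SE 0.26), and it overlaps Ergic1 and Gm8225 on the opposite strand.

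**Figure D3:**
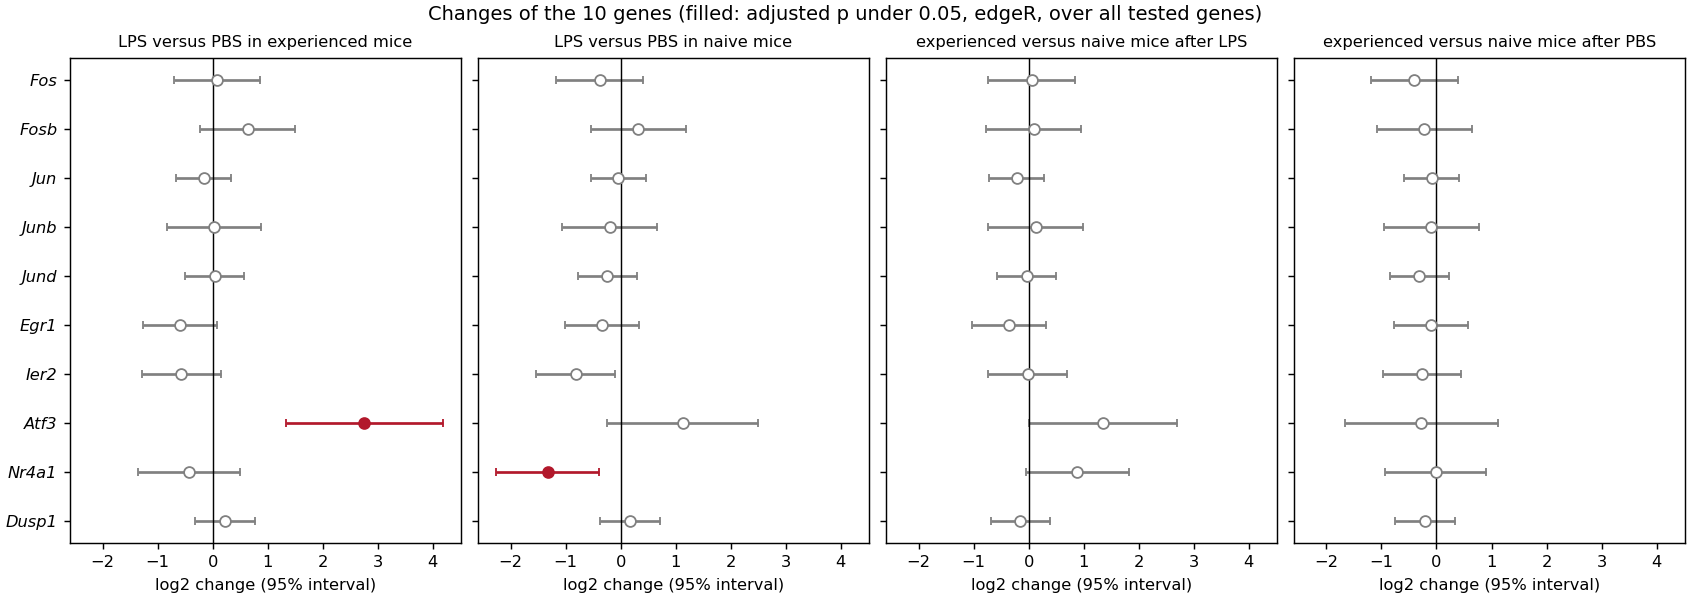
Log2 changes of the 10 genes with 95% intervals (edgeR, 4 libraries a group), for LPS against PBS in experienced and in naive mice and for experienced against naive mice after LPS and after PBS. Filled red points have an adjusted p under 0.05: Atf3 at 2.76 in experienced mice and Nr4a1 at -1.33 in naive mice.

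None of the 10 genes was called between experienced and naive mice. None had groups without overlap either, against 1.62% of all tested genes after LPS (0.606% higher, 1.01% lower) and 4.04% after PBS (1.82% higher, 2.22% lower). After LPS the log2 differences ran from -0.35 (Egr1) to 1.36 (Atf3) with a median of 0.02, and edgeR's quasi-likelihood test called 0% of all tested genes, with 491 genes (3.23%) at an unadjusted p under 0.05. Atf3 averaged 15.4 ± 11.6 CPM in experienced mice given LPS and 6.05 ± 4.08 CPM in naive mice given LPS (SD, n = 4 each). It was the 1 of the 10 with an unadjusted p under 0.05 (0.0491, edgeR adjusted p = 0.9999; 95% interval 0.0063 to 2.705), and 3 of the 4 experienced libraries lay above all 4 naive ones. Nr4a1 differed by 0.88 (95% interval -0.05 to 1.82), with 64.1 ± 33.7 CPM in experienced and 34.9 ± 19.8 CPM in naive mice given LPS (SD, n = 4 each), and again 3 of 4 experienced libraries were above all naive ones. After PBS all 10 estimates were negative, from -0.40 (Fos) to -0.01 (Nr4a1) with a median of -0.21, but none had an unadjusted p under 0.05. There too edgeR called 0% of all tested genes, with 451 (2.97%) at an unadjusted p under 0.05. The sign turned under at least 1 alternative for Fosb, Jun, Junb, Egr1, Nr4a1 and Dusp1. These 10 signs do not count as 10 observations, because the genes tended to move together from library to library, as described below. Averaged over PBS and LPS the differences ran from -0.22 to 0.54, and edgeR called 0% of all genes, with 294 (1.94%) at an unadjusted p under 0.05.

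The LPS response itself was compared between experienced and naive mice as an interaction. For the 10 genes the difference of the responses ran from -0.26 to 1.63 on the log2 scale, and 8 of the 10 estimates were positive. Atf3 had the highest value, 1.63 (SE 0.91, 95% interval -0.30 to 3.56), followed by Nr4a1 at 0.90 (SE 0.62, -0.41 to 2.21). Both had an adjusted p of 0.884 with edgeR, so the calls of Atf3 in experienced mice and of Nr4a1 in naive mice are not shown to differ from the other kind of mouse. edgeR called 0% of all tested genes in the interaction, with 695 (4.58%) at an unadjusted p under 0.05. DESeq2 called 2, 2, 2 and 1 of all tested genes in these comparisons (after LPS, after PBS, averaged and interaction), limma-voom called 2, 2, 2 and 0, and neither DESeq2 nor limma-voom called any of the 10 there.

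The 10 genes tended to rise and fall together between replicates of one group, with a split in naive mice given LPS. Among experienced mice given LPS, replicate 1 was highest for 9 of the 10 genes (all but Junb) and replicate 4 was lowest for 9 (all but Dusp1). Among experienced mice given PBS, replicate 1 was highest for 10 of 10 and replicate 3 lowest for 8 (all but Junb and Ier2). Among naive mice given LPS, replicate 4 was highest for 6 and replicate 1 for 4. Replicate 2 was lowest for 5 there and replicate 3 for 4 (Jun, Egr1, Atf3 and Dusp1). Replicate 4, highest for 6, was lowest for Nr4a1. Among naive mice given PBS, replicate 2 was highest for 9 (all but Junb) and replicate 4 lowest for 7. The summed level of the 10 genes was 2739 to 5448 CPM in experienced mice given LPS, 2257 to 6520 CPM in experienced mice given PBS, 3157 to 5702 CPM in naive mice given LPS and 3987 to 5609 CPM in naive mice given PBS. The group ranges were widest in experienced mice given PBS and lay inside one another or overlapped everywhere.

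Over the 16 libraries, with each gene centred on its group means, the correlation of a gene with the mean of the other 9 ran from 0.63 (Dusp1) to 0.94 (Fos). These values describe 16 libraries in which all genes share RNA, depth and handling. The spread between replicates was larger than that of genes at a like level. The biological coefficient of variation fitted by edgeR was 0.24 for Jun, 0.43 for Nr4a1 and 0.62 for Atf3. It was above the median of genes within 1 log2 unit of average CPM for all 10, exceeding 66.7% of such genes for Jun and 98.4% for Nr4a1. In all 4 groups the library that was lowest for more of the genes than any other also had the fewest genes detected: 14887 in experienced mice given LPS, 16930 in experienced mice given PBS, 16886 in naive mice given LPS and 17626 in naive mice given PBS. It had the smallest depth and the largest mitochondrial share of its group in 3 of the 4, all but experienced mice given PBS, where it had 14263632 counts and a mitochondrial share of 2.97%. In naive mice given LPS, however, this library (replicate 2) was lowest for only 5 of the 10 genes. Replicate 3 was lowest for 4 there and had the lowest summed level of the 10 genes, 3157 CPM. Yet it had the largest depth, the most genes detected (18366) and the smallest mitochondrial share (2.12%) of that group. The part of depth, mitochondrial share and genes detected in the spread was not tested.

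**Figure D4:**
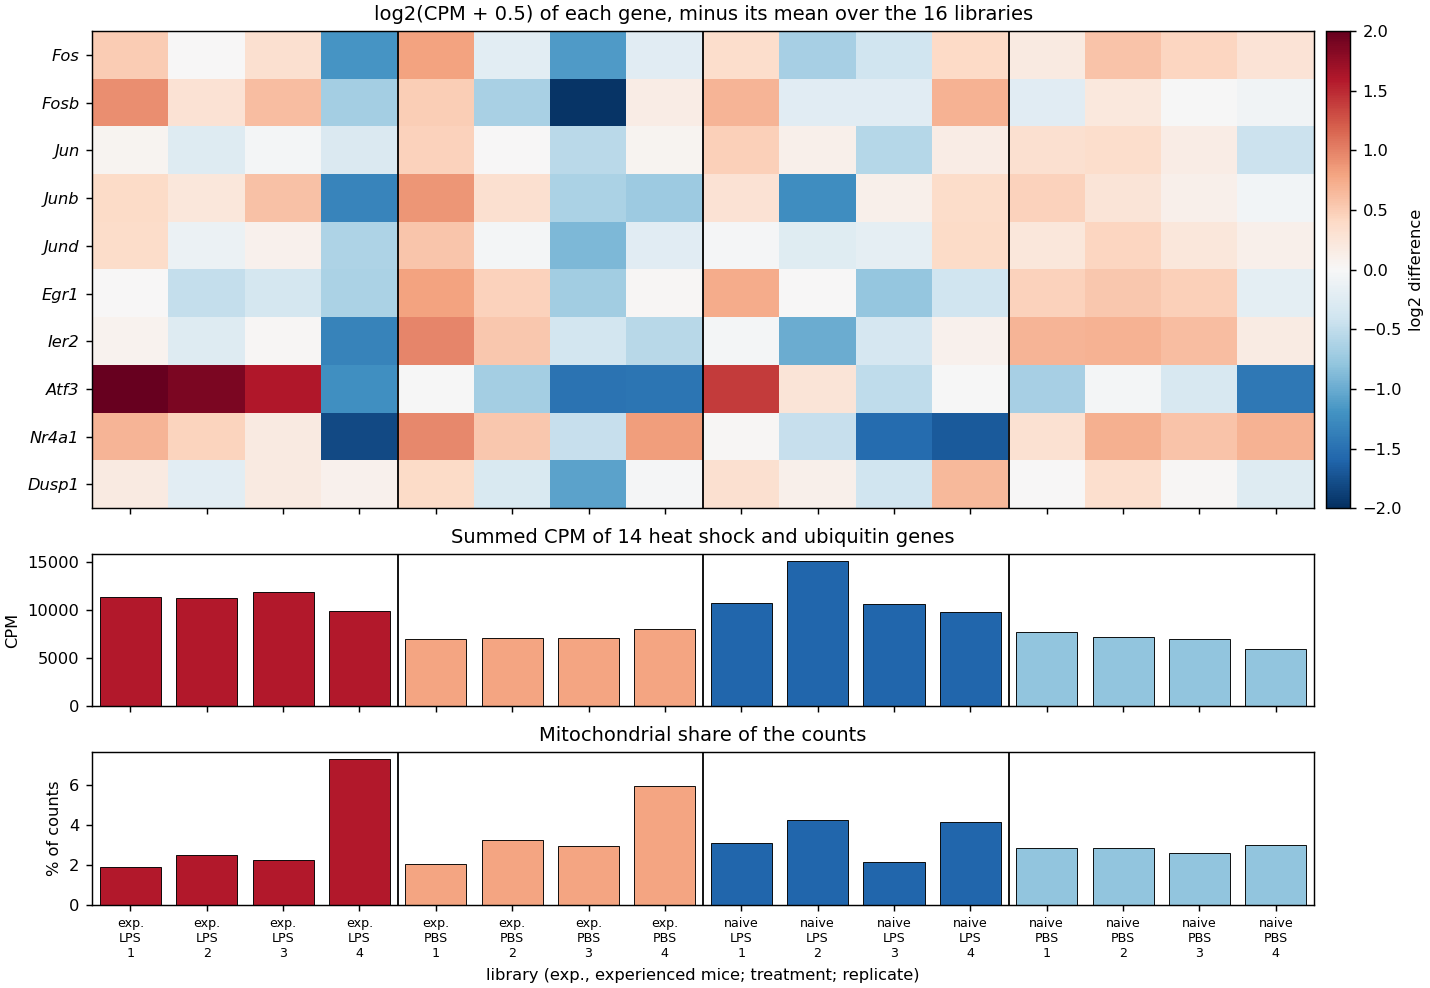
Top, log2(CPM + 0.5) of each gene minus its mean over the 16 libraries (colour, from -2 to 2), middle, the summed CPM of 14 heat shock and ubiquitin genes, and bottom, the mitochondrial share of counts, with libraries in the same columns. Most columns carry one colour over most of the genes, while the heat shock sums are higher in every library after LPS (9854 to 15094 CPM) than in any after PBS (5973 to 8081 CPM).

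Among 9381 genes whose mean log2 CPM reached 3, the 8 whose group-centred levels followed the mean of the 10 genes most closely over the 16 libraries were Klf4 (Pearson r = 0.96, Spearman rho = 0.94), Zfp36 (r = 0.94, rho = 0.89), Nfkbia (r = 0.91, rho = 0.93), Rhob (r = 0.89, rho = 0.89), Klf2 (r = 0.87, rho = 0.89), Ankrd23 (r = 0.87, rho = 0.86), Gfod1 (r = 0.86, rho = 0.75) and Ier5 (r = 0.86, rho = 0.88). Of these, Klf4, Zfp36, Rhob, Klf2 and Ier5 stood on the list of other immediate early genes. The 8 did not share one LPS change: the log2 estimate of Nfkbia, the inhibitor of NF-kappaB, was 1.01 in experienced and 0.81 in naive mice, while that of Zfp36 was -0.41 and -1.03.

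Related genes were examined in 6 lists, whose counts of called genes and median changes with LPS are given beside those of all tested genes. Of all tested genes, 4.52% were called higher and 8.26% lower in experienced mice, and 9.81% and 11.9% in naive mice. These shares, from 686, 1254, 1490 and 1803 genes, moved when libraries were left out. Without both libraries of high mitochondrial share the counts were 1559, 1801, 2426 and 2377 of 15484 genes. With single libraries left out they ran from 302 to 1456 and 712 to 1701 in experienced mice. In naive mice they ran from 768 to 2184 and 1233 to 2214. The highest were without replicate 4 of experienced mice given LPS. Of 12 tested other AP-1 family genes, 1 was lower and 0 higher in each kind of mouse, and it was Fosl2, which encodes the Fos protein FRA2. Fosl2 averaged 57.7 ± 15.3 CPM in experienced mice given LPS and 112 ± 31.9 CPM in experienced mice given PBS (log2 -0.95, SE 0.22, adjusted p = 0.00939), and 58.0 ± 9.6 CPM in naive mice given LPS and 130.2 ± 19.2 CPM in naive mice given PBS (log2 -1.17, SE 0.22, adjusted p = 0.00175; SD, n = 4 each, edgeR). The median change of the list was 0.05 and 0.07 in experienced and naive mice, against -0.02 and 0.02 for all tested genes. With both libraries of high mitochondrial share left out, 2 genes of this list were lower in experienced and 3 in naive mice. Without replicate 4 of experienced mice given LPS 2 were higher and 2 lower in experienced mice and 3 lower in naive mice, and without replicate 2 of naive mice given LPS 1 was higher and 1 lower in experienced mice. The naive count was 1 without replicates 1, 2 or 3 of naive mice given PBS and 2 without any one of the rest.

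Of 27 tested other immediate early genes, 0 were higher and 1 lower in experienced mice, and 0 were higher and 5 lower in naive mice, with median changes of -0.05 and -0.50. The share of all tested genes called lower was 8.26% in experienced and 11.9% in naive mice. Klf10, a zinc finger gene of the TGF-beta early response, was lower in both, by -0.75 (SE 0.19, adjusted p = 0.0166) in experienced and -0.67 (SE 0.19, adjusted p = 0.0203) in naive mice with edgeR. The Klf10 groups overlapped in naive but not in experienced mice. Zfp36, which encodes the mRNA-destabilising protein tristetraprolin, averaged 291 ± 99 CPM in naive mice given LPS and 595.5 ± 33.5 CPM in naive mice given PBS (SD, n = 4 each; log2 -1.03, SE 0.34, adjusted p = 0.0392). The kinase gene Plk2 changed by -1.79 (SE 0.50) and Egr4 by -2.84 (SE 0.94), from low levels of 12.9 and 1.299 CPM after PBS. The Egr4 groups overlapped, at 0.088 to 0.235 CPM after LPS and 0.060 to 2.02 CPM after PBS, while the Plk2 groups did not. Sik1, a kinase gene that CREB induces, changed by -0.90 (SE 0.30). The naive count fell to 0 without replicate 3 of naive mice given LPS, to 1 without its replicate 2 or without replicate 3 of naive mice given PBS, to 2 without replicate 4 of naive mice given LPS or replicates 1, 2 or 4 of naive mice given PBS, and to 3 without replicate 3 of experienced mice given LPS or replicate 2 of experienced mice given PBS. In experienced mice, leaving out replicate 4 after LPS gave 3 higher and 1 lower, replicate 3 after LPS 0 of either, replicate 1 after PBS 1 higher and 0 lower, and replicate 2 of naive mice given LPS 1 of each. Without both libraries of high mitochondrial share 3 were higher and 1 lower in experienced mice, and 1 was higher and 7 lower in naive mice. Of all 15484 genes tested in that fit, 1559 were higher and 1801 lower in experienced mice, and 2426 and 2377 in naive mice.

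Some feedback inhibitors of MAP kinase signalling were called lower in naive mice, and most were not called. Of 14 MAP kinase phosphatase and Sprouty family genes, 0 were higher and 2 lower in experienced mice, and 0 were higher and 5 lower in naive mice, where the share of all genes called lower was 8.26% in experienced and 11.9% in naive mice. Changes in the list ran from -2.18 to 2.80 in naive mice. Dusp4, a nuclear MAP kinase phosphatase gene, averaged 2.97 ± 0.77 CPM in naive mice given LPS and 13.3 ± 2.1 CPM in naive mice given PBS (SD, n = 4 each; log2 -2.18, SE 0.31, edgeR adjusted p = 0.000191). The ERK phosphatase gene Dusp5 changed by -1.48 (SE 0.30) in naive and -1.08 (SE 0.30) in experienced mice, and Spred3, an inhibitor of Ras signalling to ERK, by -1.02 (SE 0.23) and -0.89 (SE 0.23). Dusp6 (-0.80, SE 0.19) and Spry2 (-0.65, SE 0.21) were lower in naive mice. The median change of the list was -0.68 in naive and -0.29 in experienced mice. With single libraries left out, 4 to 7 were lower in naive and 0 to 4 in experienced mice, 0 without replicate 3 after LPS, 1 without replicates 1 or 2 after LPS or after PBS, and 4 without replicate 3 after PBS. In naive mice 2 were higher without replicate 4 of experienced mice given LPS, and 1 was higher without replicate 2 of naive mice given LPS, replicate 3 of naive mice given PBS or replicate 4 of experienced mice given PBS. Of 16 MAP kinases and their activators, 0 were higher in either kind of mouse, Mapk3 (ERK1; -0.81, SE 0.22) and Mapk11 (p38 beta; -1.64, SE 0.45) were lower in naive mice and Map2k6, which activates p38, was lower in experienced mice (-0.87, SE 0.22). Beside these counts stand the same shares of all genes called lower, 8.26% in experienced and 11.9% in naive mice. The lower count in naive mice was 1 without replicates 1 or 3 of naive mice given LPS or replicate 4 of naive mice given PBS. In experienced mice it was 0 without replicate 3 after LPS, and 2 without replicate 4 after LPS or replicate 1 of naive mice given LPS. Without replicate 4 of experienced mice given LPS 1 gene was higher in each kind of mouse.

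Of 14 genes for SRF, CREB and their partners, 0 were higher and 3 lower in experienced mice, and 2 were higher and 6 lower in naive mice. The shares of all tested genes were 4.52% higher and 8.26% lower in experienced mice, and 9.81% and 11.9% in naive mice. Mrtfa, the SRF cofactor that responds to actin, averaged 61.2 ± 8.9 CPM in experienced mice given LPS and 109.8 ± 26.2 CPM in experienced mice given PBS (log2 -0.84, SE 0.16, adjusted p = 0.0025), and 51.6 ± 5.1 CPM in naive mice given LPS and 122 ± 4.4 CPM in naive mice given PBS (log2 -1.24, SE 0.16, adjusted p = 8.96e-05; SD, n = 4 each, edgeR). Elk3, an ETS partner of SRF, changed by -0.72 (SE 0.16) in experienced and -0.88 (SE 0.16) in naive mice, and Mrtfb by -0.69 (SE 0.17) and -0.81 (SE 0.17). Crtc1, a CREB coactivator, was lower in naive mice (-0.84, SE 0.17), while the CREB relatives Crem (0.77, SE 0.23) and Atf1 (0.43, SE 0.14) were higher there. Nab2 (-0.81, SE 0.19) and Elk1 (-0.66, SE 0.20) were also lower in naive mice. Sik1, Spry2, Nab2, Elk1, Crem and Atf1 were named after their values had been seen. The median change of the list was -0.22 in experienced and 0.00 in naive mice. With single libraries left out, 2 to 4 were lower in experienced and 5 to 6 in naive mice, and 0 to 3 were higher in naive mice. The higher count there was 0 without replicate 3 of naive mice given LPS or replicate 1, 2 or 3 of naive mice given PBS, and 1 without replicate 1 or 2 of naive mice given LPS, replicate 4 of naive mice given PBS or replicate 1 or 2 of experienced mice given LPS. The lower count in experienced mice was 2 without replicate 3 after LPS.

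Heat shock genes, which cell handling also raises, had calls in the higher direction alone. Of 14, 4 were higher and 0 lower in experienced mice, and 6 were higher and 0 lower in naive mice, against 4.52% and 9.81% of all genes called higher. Their summed level was 9907 to 11876 CPM in experienced mice given LPS against 6966 to 8081 CPM in experienced mice given PBS, and 9854 to 15094 CPM in naive mice given LPS against 5973 to 7782 CPM in naive mice given PBS. Hspe1, the mitochondrial co-chaperonin, averaged 189 ± 25.3 CPM in experienced mice given LPS and 114 ± 34.8 CPM in experienced mice given PBS, and 217 ± 41 CPM in naive mice given LPS and 93.9 ± 17.0 CPM in naive mice given PBS (SD, n = 4 each). Its log2 changes were 0.73 (SE 0.20, adjusted p = 0.026) and 1.21 (SE 0.20, adjusted p = 0.00084) with edgeR. With both libraries of high mitochondrial share left out 6 of the 14 were higher in experienced and 7 in naive mice. Of all 15484 genes tested in that fit, 1559 and 2426 were higher, against 686 and 1490 of 15186 in the main fit. With single libraries left out 6 to 7 were higher in naive mice and 0 to 7 in experienced mice, 0 without replicate 1 or 2 after PBS, 1 without replicate 2 or 3 after LPS, 2 without replicate 1 after LPS, 6 without replicate 4 of naive mice given LPS, and 7 without replicate 4 after LPS or replicate 2 of naive mice given LPS. With limma on log2(TPM + 1) the higher counts were 0 in experienced and 3 in naive mice, where 154 and 330 of all 14429 genes were higher. The part of heat shock or handling in the changes of Atf3, Nr4a1 and the Fosb to Fos ratio was not tested. In no list was a gene called between experienced and naive mice or in the interaction by edgeR, where all 6 lists had 0 genes called higher and 0 lower.

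**Figure D5:**
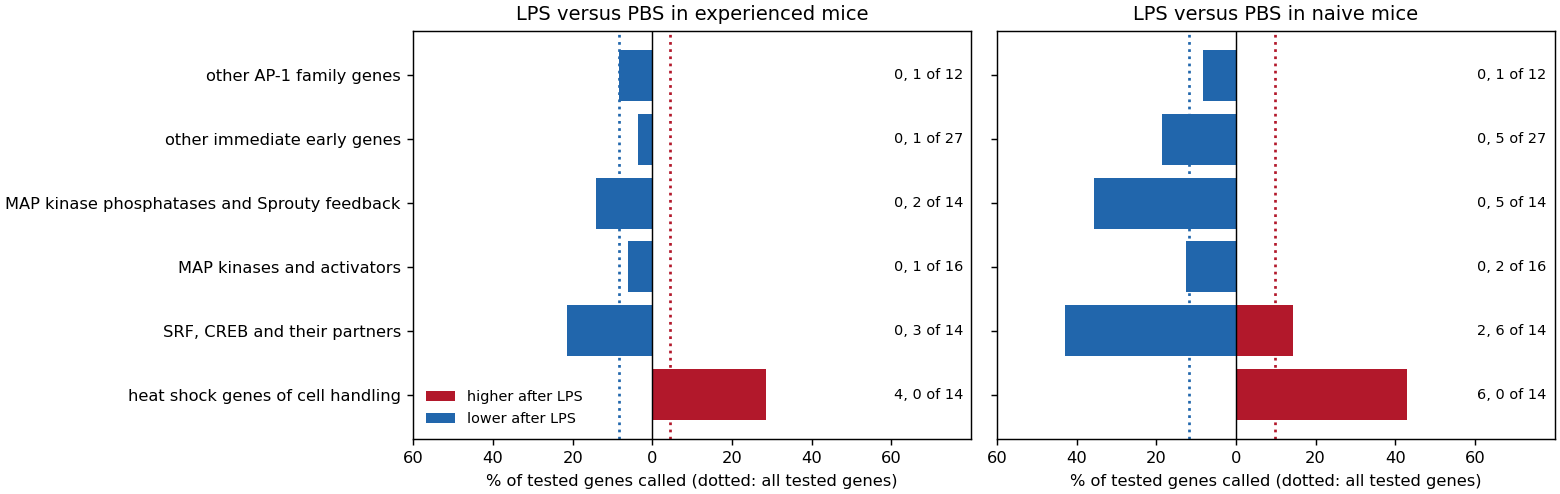
Share of the tested genes of 6 related lists called higher (red, to the right) or lower (blue, to the left) after LPS in experienced and in naive mice (edgeR, adjusted p under 0.05), with counts of higher, lower and tested genes at the right. Dotted lines mark the shares of all tested genes, 4.52% and 8.26% in experienced and 9.81% and 11.9% in naive mice.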

How the data were processed

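RNA of sorted bone marrow HSPCs was measured in 16 biological replicates, 4 in each of 4 groups, taken with their replicate numbers from the sample titles. The labels list 2 technical replicates for each, 32 samples in all, but 1 table per biological replicate. No source states whether their reads were merged. RNA came from a column extraction, although the labels name a droplet-based library kit. With 1 value per gene and library, the tables were treated as bulk RNA-seq.

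The submitters' processing notes name Trim Galore 0.6.7, STAR 2.7.10a, RSEM 1.3.1 and the GRCm38 build. For the annotation release and the strand setting, no statement was found in the labels or headers. Per the file headers, the authors deposited 2 values per gene: the expected count, an estimate by RSEM that can be fractional, and TPM, which also corrects for effective length. Symbols came from GENCODE M21 (45143 of 45706 gene IDs matched).

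Expected counts were rounded and tested with edgeR 4.0.16 (R 4.3.3): TMM factors, filterByExpr by group, 1 mean per group over all 16 libraries, quasi-likelihood tests of 6 contrasts, Benjamini-Hochberg adjustment over 15186 genes, called at an adjusted p under 0.05. CPM used the TMM-scaled library sizes. A group was said not to overlap when all its 4 libraries lay above, or all below, the 4 of the other. The fit was tested on simulated data first. Alternatives were DESeq2 1.42.0, limma 3.58.1 on log2(TPM + 1) and log2(TPM + 0.1) for genes over 1 TPM in at least 4 libraries, limma-voom with quality weights, other factors and filters, the compared groups alone, a replicate block, and leaving libraries out. The log2 of the Fosb to Fos ratio was tested by exact permutation over the 70 arrangements of 4 and 4 libraries. All 10 genes were named. Of other lists, the rule was to name the called genes of lowest adjusted p, at most 4 a list and contrast. Sik1, Spry2, Nab2, Elk1, Crem and Atf1 were named beyond it. Of the called heat shock genes Hspe1 alone was named, though others had a lower adjusted p. The members, lists and tests were chosen with earlier results of these data known.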

Additional observations from a re-analysis of the deposited data

Results flagged for a closer look

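The Egr1 level in replicate 4 of naive mice given PBS, 429 CPM, lay apart from the other 3 libraries of its group, of which the nearest had 675 CPM. The gap was 0.873 of the range of the group, above the 95% critical value of Dixon's test for 4 values. It was 1 flag among 44 groups of 4 libraries tested, and chance flags about 1 group in 20. That library was lowest of its group for 7 of the 10 genes.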

How the results depend on the processing

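In naive mice the count of called genes was 1 (Nr4a1) and moved to 0 with limma on log2(TPM + 1), on log2(TPM + 0.1) and on log2(TPM + 1) with no filter (adjusted p of Nr4a1 0.0585, 0.0628 and 0.106), and to 2 with limma-voom with quality weights, with the groups compared alone and with both libraries of high mitochondrial share left out (Nr4a1 and Ier2). With single libraries left out it was 0 to 1. In experienced mice the count was 1 (Atf3) and moved to 0 with limma on log2(TPM + 1) with no filter (adjusted p = 0.0529) and to 4 with limma-voom with quality weights (Fosb, Atf3, Egr1 and Ier2). With single libraries left out it was 0 to 1. Of 15186 tested genes, limma-voom called 3521 higher and 4021 lower in experienced mice, against 686 and 1254 in the main fit. In naive mice it called 2260 higher and 2282 lower, against 1490 and 1803. The compared groups alone gave 1593 higher and 1944 lower of 14533 genes in naive mice. Leaving out both libraries of high mitochondrial share gave 2426 and 2377 of 15484 there. The causes were not tested. The other 4 comparisons stayed at 0 in all alternatives run. No estimate of the 10 genes that was called changed its direction. Of the single-gene results, 1519 kept their side of the threshold, 15 lost a call and 6 gained one.

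With a replicate block the counts were 1 in naive and 1 in experienced mice and 0 in the other comparisons. Over 24 pairs of same-numbered libraries the median correlation of deviations was -0.027 (range -0.223 to 0.321), with 4 over 0.1. Over 72 pairs of unlike number it was 0.006 (range -0.388 to 0.317), with 18 over 0.1. Between experienced mice given LPS and PBS the same-numbered values were 0.175, 0.222, -0.123 and 0.321 for replicates 1 to 4. The medians show no pairing by number over all groups, and pairing between single groups was not tested.

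Limma on TPM moved the median log2 change of all genes in experienced mice to -0.12 (log2(TPM + 1)) and -0.15 (log2(TPM + 0.1)), against -0.02. Of the genes called, 15.96% and 16.4% were then higher, against 35.4%, and in naive mice 20.6% and 21.2%, against 45.2%. Without the filter they were 15.0% in experienced and 16.5% in naive mice. In naive mice upper-quartile factors gave 35.0%. In experienced mice 46.7% were higher with limma-voom and 46.4% without both libraries of high mitochondrial share. The Fosb to Fos difference in naive mice was 0.70 on the log2 scale in CPM, 0.61 in TPM and 0.66 to 0.75 with single libraries left out. In experienced mice it was 0.67, 0.74 and 0.50 to 0.90.

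With 4 libraries a group, the SEs of the log2 changes with LPS ran from 0.24 (Jun) to 0.68 (Atf3), so small changes were not detectable at this spread. The interaction SE of Atf3 was 0.91. In simulated data, the fit recovered 42% of 2-fold LPS changes in naive and 40% in experienced mice. Of 2-fold differences between kinds of mice it recovered 46% after LPS and 44% after PBS. In the interaction it recovered 14% of 2-fold and 52% of 4-fold changes. Counts of 0 there do not show that nothing differed. Atf3 had 11 to 584 counts a library and is the gene whose values rest most on depth.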
